A study of Caenorhabditis elegans with 6 samples.

Results

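Transcript levels of 38 genes of the muscle sarcomere and of muscle contraction were followed in the nematode Caenorhabditis elegans raised on chlorpyrifos (CPF). The genes were listed by name for their known roles in thick filaments, thin filaments, attachment of the filaments and excitation, and were matched to the array by gene symbol. All 38 were found, with 65 probes, among 18865 genes with 22490 probes. CPF treated worms were of the wild type strain N2 and spent their first 72 hours, from the egg on and at 16 °C, on agar to which CPF dissolved in acetone had been added. Control worms were N2 worms of the same age and temperature on agar with acetone only. Both had Escherichia coli OP50 as food and were harvested as L3 to L4 larvae. Each sample was RNA of whole worms pooled from several dishes, so transcripts of muscle were measured together with those of every other tissue. Each of 6 arrays with 2 colours carried 1 CPF and 1 control sample. The CPF sample was labelled with Cy5 on 3 arrays (CPF Cy5 replicates 1 to 3) and with Cy3 on the other 3 (CPF Cy3 replicates 1 to 3). The dose of CPF reads 0.5 mg/ml in the labels and the same number of milligrams per litre in the text of the study. The deposited files do not decide between them, but the study places its dose below effect concentrations (EC50) that it cites in milligrams per litre. The replicates are described as biological. Since no source used here states if the 6 control samples were separate extracts, the p-values refer to the spread between these 6 arrays.

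Muscle of the worm contracts when myosin heads on thick filaments pull on actin in thin filaments. Calcium enters through voltage-gated channels and is released from the sarcoplasmic reticulum, binds troponin C, and shifts tropomyosin so that myosin can reach actin. Filaments are anchored at dense bodies and M-lines, which pass the force through integrin and the basement membrane to the cuticle. The body wall muscles move the worm, and the separate muscle of the pharynx, with its own myosins and troponins, pumps in food. CPF, an organophosphorus insecticide, blocks acetylcholinesterase, the enzyme that ends the acetylcholine signal to muscle.

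The direction of the muscle genes differed between arrays, and no member differed between CPF treated and control worms beyond the spread between arrays. Of 38 members 0 passed the test (limma, adjusted p below 0.05 after Benjamini and Hochberg over all genes), while 225 genes, or 1.19% of all genes, passed it. An unadjusted p below 0.05 was found for 1 of 38 members, against 10.3% of all genes. In 30 of the 38 members the log2 fold change of CPF over control was above 0, against 51.8% of all genes, and the median was 0.073, against 0.005 over all genes. The 38 log2 fold changes lay between -0.16 and 0.45, with standard errors (SE) between 0.08 and 0.46. None of the members reached a 2-fold change, and none had the same sign on all 6 arrays. In whole worms, fewer muscle cells and less RNA per muscle cell cannot be told apart.

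Headers of the scanner files place the arrays on separate scan days, each with both dye orientations. CPF Cy5 replicate 3 and CPF Cy3 replicates 2 and 3 were scanned on scan day 2, and CPF Cy5 replicates 1 and 2 and CPF Cy3 replicate 1 on scan day 1. On the arrays of scan day 2 the median log2 ratio of CPF over control over the 38 members was 0.13 (CPF Cy5 replicate 3), 0.29 (CPF Cy3 replicate 2) and 0.45 (CPF Cy3 replicate 3). On those of scan day 1 it was -0.04 (CPF Cy5 replicate 1), -0.01 (CPF Cy5 replicate 2) and -0.28 (CPF Cy3 replicate 1). The median over all genes lay between -0.02 and 0.02 on every array. In the same order, 27, 26 and 34 of the 38 members were above 0 on scan day 2, and 17, 18 and 7 on scan day 1. The arrays of opposite extremes, CPF Cy3 replicates 3 and 1, thus had the same dye orientation. With median centring in place of loess the member median turned to -0.11 on CPF Cy3 replicate 2, 0.21 on CPF Cy5 replicate 1 and 0.30 on CPF Cy5 replicate 2, where that of genes above background was -0.31, 0.25 and 0.22. Relative to genes above background the members were then at 0.21, 0.20 and 0.45 on the 3 arrays of scan day 2, and at -0.04, 0.08 and -0.32 on those of scan day 1.

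**Figure D1:**
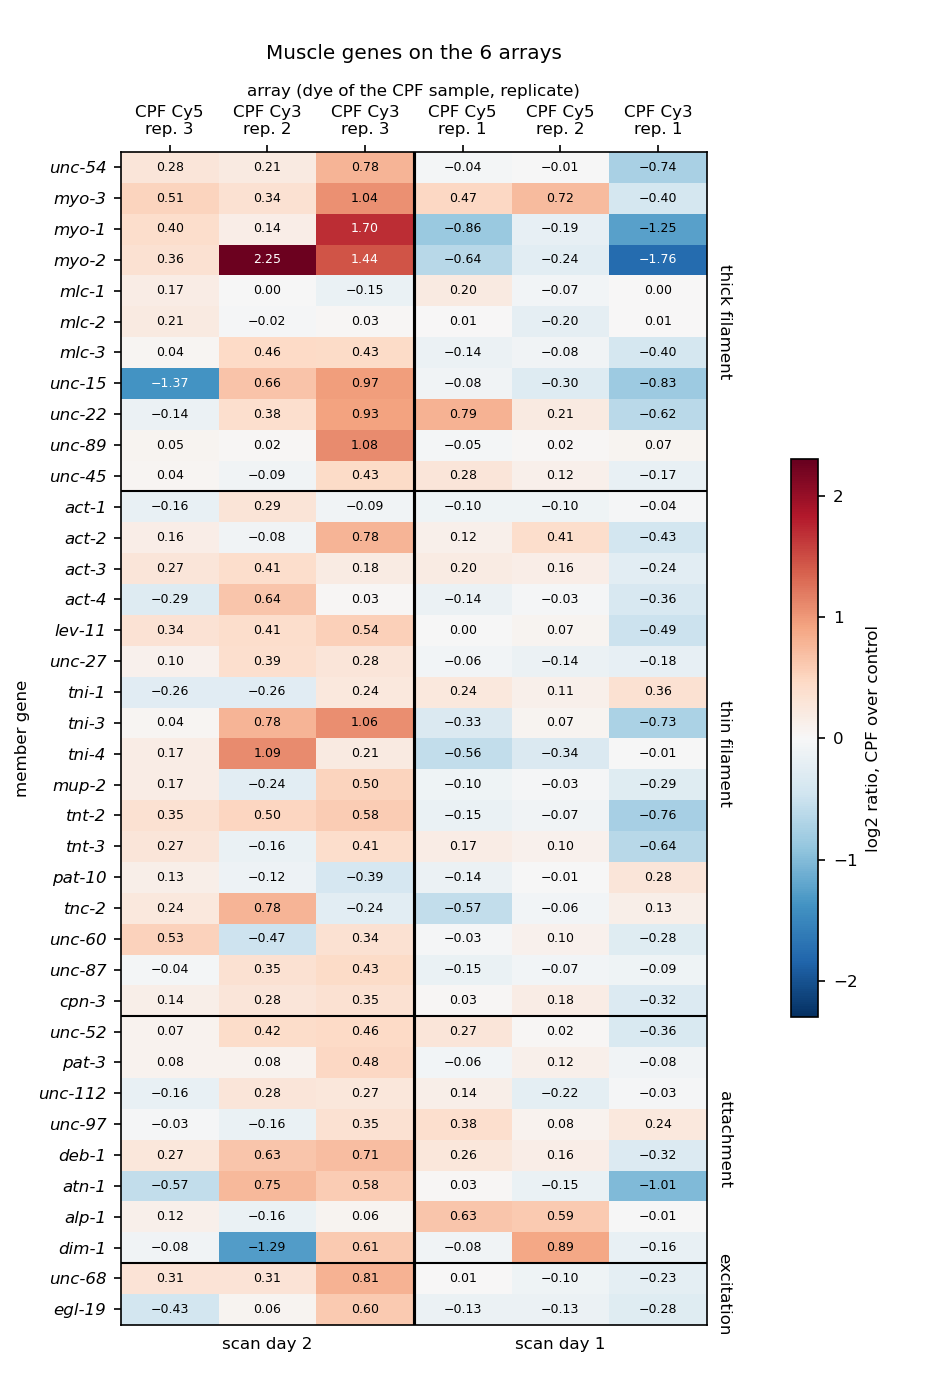
Log2 ratio of CPF over control for each of the 38 members (rows, grouped by role) on each of the 6 arrays (columns, scan day 2 left of the black line and scan day 1 right of it), with the value printed in each cell and on the colour scale. Red cells (higher in CPF) fill most of the column of CPF Cy3 replicate 3, where 34 members were above 0, and blue cells (lower in CPF) most of that of CPF Cy3 replicate 1, where 7 were.

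**Figure D2:**
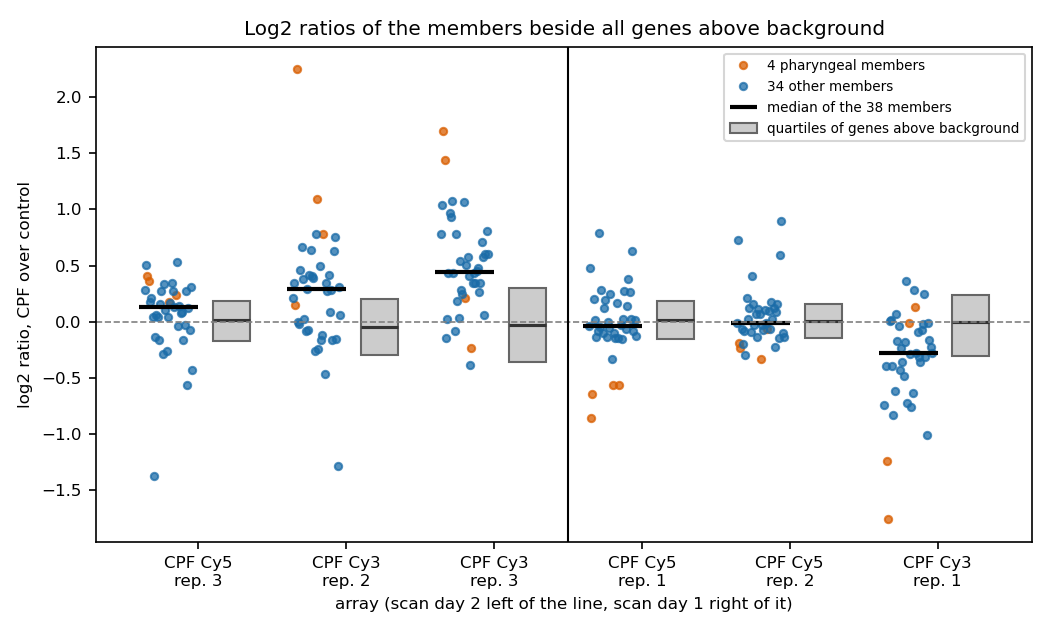
Log2 ratios of CPF over control on each array, with a point for each of the 4 pharyngeal and 34 other members, a black bar at the median of the 38 members, and a grey box from the lower to the upper quartile of the 7072 genes above background with its median. The black bars lie between -0.28 and 0.45, while the medians of the genes above background lie between -0.04 and 0.01.

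Nearly all members gave strong signals. In 32 of 38 (84.2%) the probe read was above background in the CPF and the control sample of all 6 arrays, against 31.0% of all genes. The regulatory myosin light chain mlc-1 was above background on no array, so it is counted and plotted here but its fold change is not described. Another 5 members (myo-1, unc-89, unc-45, tni-1 and alp-1) were above background in some samples only, unc-45 in 3 CPF and 3 control samples. Over the 33 members that were above background on all arrays of a condition, the median log2 fold change was 0.073 and 26 were above 0. The residual standard deviation of the fit had a median of 0.37 over the members and of 0.30 over all genes above background. At least 25% of the pixels of a spot were saturated in 4 members, the actins act-1, act-3 and act-4 and the light chain mlc-2, and in none of them on all arrays of a condition. Actin genes are nearly identical in sequence, as are mlc-1 and mlc-2, so that a probe may read several of them and the values of single genes are uncertain. The probe of mlc-1, at a mean log2 brightness of 6.17 against 14.33 for mlc-2, did not show the signal of mlc-2.

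Thick filaments are built from myosin heavy and light chains around a core of paramyosin. Of their 11 members 0 passed the test and 9 had a log2 fold change above 0, with a median of 0.08. Their median on the arrays of scan day 2 was 0.17 (CPF Cy5 replicate 3), 0.21 (CPF Cy3 replicate 2) and 0.93 (CPF Cy3 replicate 3). On scan day 1 it was -0.04 (CPF Cy5 replicate 1), -0.07 (CPF Cy5 replicate 2) and -0.40 (CPF Cy3 replicate 1). The thick filament genes included the members with the highest and the lowest fold change of all 38.

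The gene myo-3 encodes myosin heavy chain A, which lies at the centre of the body wall thick filament. Its log2 ratio was 0.51 on CPF Cy5 replicate 3, 0.34 on CPF Cy3 replicate 2, 1.04 on CPF Cy3 replicate 3, 0.47 on CPF Cy5 replicate 1 and 0.72 on CPF Cy5 replicate 2, but it was -0.40 on CPF Cy3 replicate 1. It was thus higher in CPF on 5 of 6 arrays and lower on CPF Cy3 replicate 1 alone. The log2 fold change of 0.45 ± 0.17 (SE, n = 6) was the highest among the members and the only one with an unadjusted p below 0.05, but it did not pass the limma test over all genes (adjusted p = 0.374). Without CPF Cy3 replicate 1 it was 0.63 ± 0.12 and passed (limma, adjusted p = 0.043). Leaving out CPF Cy3 replicate 3 instead gave 0.27 ± 0.12, which did not pass (adjusted p = 0.512). In the rank product, the test named in the methods of the study, myo-3 had a percentage of false positives of 0.0518, just outside its threshold of 0.05, and 0 members passed.

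The gene unc-54 encodes myosin heavy chain B, the main myosin of the body wall. Its log2 ratio was 0.28, 0.21 and 0.78 on CPF Cy5 replicate 3 and CPF Cy3 replicates 2 and 3, the arrays of scan day 2. On scan day 1 it was -0.04, -0.01 and -0.74 on CPF Cy5 replicates 1 and 2 and CPF Cy3 replicate 1. The days did not overlap, and the log2 fold change over all arrays was 0.08 ± 0.18 (limma, adjusted p = 0.94). On CPF Cy3 replicate 2 the log2 intensity of unc-54 was 10.13 in the CPF and 9.92 in the control sample, while on the other arrays it lay between 12.05 and 14.65 in CPF and between 11.76 and 14.73 in control samples. Both samples of myo-3 and myo-1, and the control sample of myo-2, also had their lowest intensity on that array. It was the array with the lowest shares of probes above background (34.98% in CPF and 41.5% in control).

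The genes myo-1 and myo-2 encode the heavy chains D and C of the pharynx, and they varied most between arrays. The log2 ratio of myo-2 was 0.36, 2.25 and 1.44 on CPF Cy5 replicate 3 and CPF Cy3 replicates 2 and 3, against -0.64, -0.24 and -1.76 on CPF Cy5 replicates 1 and 2 and CPF Cy3 replicate 1. That of myo-1 was 0.40, 0.14 and 1.70 on the arrays of scan day 2, against -0.86, -0.19 and -1.25 on those of scan day 1, in the same order. Both genes were thus above 0 on the arrays of scan day 2 and below 0 on those of scan day 1, but on CPF Cy3 replicate 2 myo-1 was not above background in either sample, so that its ratio of 0.14 there gives no direction. Over all 6 arrays these differences cancelled, with a log2 fold change of 0.23 ± 0.46 for myo-2 (limma, adjusted p = 0.929) and of -0.01 ± 0.34 for myo-1 (adjusted p = 0.999). On CPF Cy3 replicate 2 the ratio of myo-2 came with a log2 intensity of 11.31 in the CPF sample, within its range on the other arrays (8.85 to 11.51), and of 9.06 in the control sample, below its range there (10.07 to 11.84). On CPF Cy3 replicate 1 it was the CPF sample that was low, at 8.85, while its control was at 10.61.

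**Figure D3:**
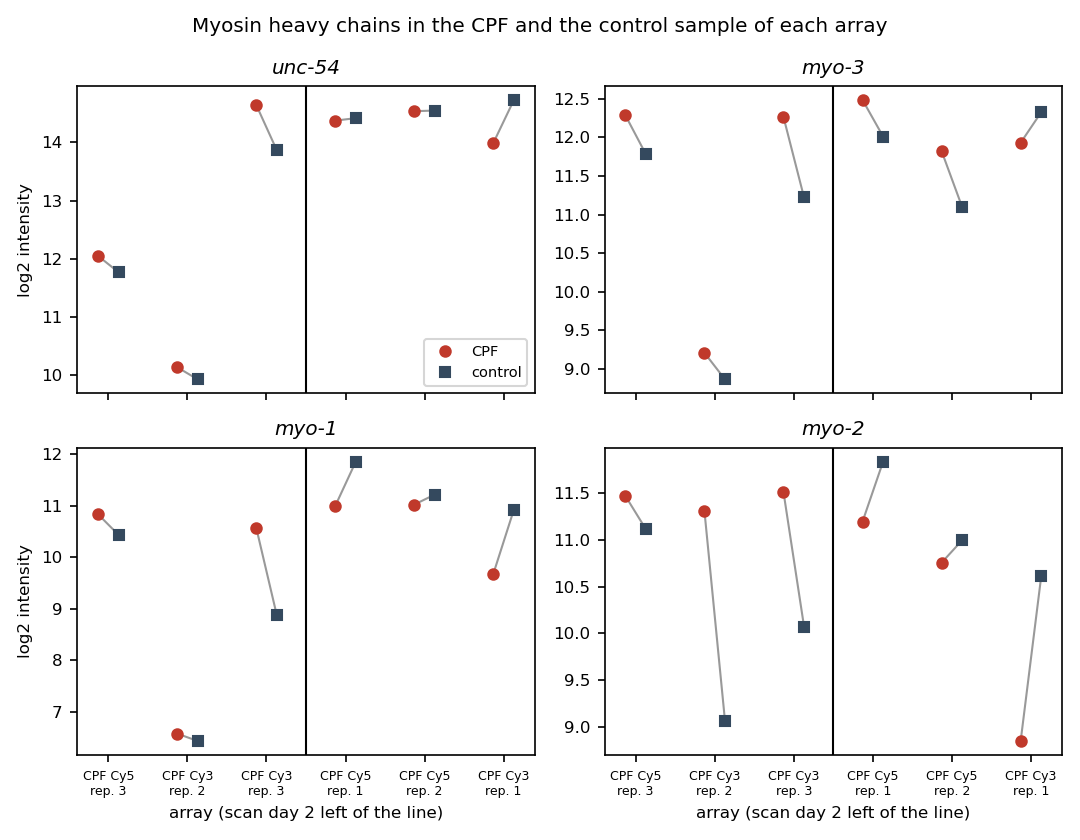
Log2 intensity of the 4 myosin heavy chain genes in the CPF sample (red circle) and the control sample (dark square) of each array, joined by a line, with scan day 2 left of the black line and scan day 1 right of it. For myo-1 and myo-2 the CPF sample is the higher of the pair on the 3 arrays of scan day 2 and the lower on the 3 arrays of scan day 1, with myo-1 not above background on CPF Cy3 replicate 2, and myo-3 is lower in CPF on CPF Cy3 replicate 1 alone.

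Paramyosin, the core protein of the thick filament encoded by unc-15, had the lowest fold change of all members. Its log2 ratio was -1.37 on CPF Cy5 replicate 3, 0.66 on CPF Cy3 replicate 2, 0.97 on CPF Cy3 replicate 3, -0.08 on CPF Cy5 replicate 1 and -0.30 on CPF Cy5 replicate 2, with a value of -0.83 on CPF Cy3 replicate 1. It was below 0 on 4 of 6 arrays, 1 of them of scan day 2, and its log2 fold change was -0.16 ± 0.25 (limma, adjusted p = 0.908). The essential light chain mlc-3 was above 0 on the 3 arrays of scan day 2 (0.04 to 0.46) and below 0 on those of scan day 1 (-0.40 to -0.08). The bright light chain mlc-2 stayed between -0.20 and 0.21 on all arrays. Among the large proteins and helpers of the thick filament, twitchin (unc-22, a giant kinase) ranged from -0.62 to 0.93 and the myosin chaperone unc-45 from -0.17 to 0.43. The obscurin homologue unc-89 of the M-line lay between -0.05 and 0.07 on 5 arrays and at 1.08 on CPF Cy3 replicate 3.

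Thin filaments consist of actin, tropomyosin and the troponin complex, with proteins that bundle or sever actin. Of their 17 members 0 passed the test and 14 had a log2 fold change above 0, with a median of 0.07 and a range from -0.04 to 0.16. Their median on scan day 2 was 0.16 (CPF Cy5 replicate 3), 0.35 (CPF Cy3 replicate 2) and 0.34 (CPF Cy3 replicate 3). On scan day 1 it was -0.10 (CPF Cy5 replicate 1), -0.01 (CPF Cy5 replicate 2) and -0.28 (CPF Cy3 replicate 1). The medians of the thin filament genes thus had the same signs as those of the thick filament genes on all 6 arrays, and were nearer to 0 on CPF Cy3 replicate 3.

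The highest fold change among them was that of the actin gene act-3, whose log2 ratio was 0.27, 0.41 and 0.18 on CPF Cy5 replicate 3 and CPF Cy3 replicates 2 and 3, and 0.20, 0.16 and -0.24 on CPF Cy5 replicates 1 and 2 and CPF Cy3 replicate 1. It was above 0 on 5 of 6 arrays, with a log2 fold change of 0.16 ± 0.10 (limma, adjusted p = 0.655). The lowest was that of pat-10, a troponin C of the body wall, with log2 ratios of 0.13, -0.12 and -0.39 on the arrays of scan day 2 and of -0.14, -0.01 and 0.28 on those of scan day 1, and a log2 fold change of -0.04 ± 0.10 (adjusted p = 0.947). On CPF Cy3 replicates 3 and 1 pat-10 was thus opposite to most members. The other actin genes had log2 fold changes between -0.03 (act-1) and 0.16 (act-2), and act-1, with 5 arrays between -0.16 and -0.04, stood at 0.29 on CPF Cy3 replicate 2.

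Troponin I holds the thin filament in its resting state. Its 4 genes did not move alike, since tni-3 (between -0.73 and 1.06) and tni-4 of the pharynx (between -0.56 and 1.09) spread widely, while unc-27 lay between -0.18 and 0.39 and tni-1 between -0.26 and 0.36. Unlike most members, tni-1 had a lower mean ratio on scan day 2 (-0.09) than on scan day 1 (0.24). The mean of scan day 2 includes CPF Cy3 replicate 2, where tni-1 was not above background in either sample. Of the genes of troponin T, which binds the complex to tropomyosin, tnt-2 was above 0 on the 3 arrays of scan day 2 (0.35 to 0.58) and below 0 on those of scan day 1 (-0.76 to -0.07). For mup-2 and tnt-3, the other troponin T genes among the members, the days overlapped. The pharyngeal troponin C gene tnc-2 was highest on CPF Cy3 replicate 2 (0.78) and lowest on CPF Cy5 replicate 1 (-0.57). The actin-severing protein ADF/cofilin (unc-60) and the calponin-like actin bundlers unc-87 and cpn-3 had log2 fold changes of 0.03, 0.07 and 0.11.

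Tropomyosin, encoded by lev-11, is read by 6 probes named for several transcripts, and 5 of them varied more than the brightest. The brightest probe, which stands for the gene here, had log2 ratios from -0.49 on CPF Cy3 replicate 1 to 0.54 on CPF Cy3 replicate 3. The other 5 probes lay between -1.95 and -0.98 on CPF Cy3 replicate 1, between 0.64 and 1.91 on CPF Cy3 replicate 2 and between 0.50 and 1.06 on CPF Cy3 replicate 3. All 5 were below 0 on CPF Cy5 replicates 1 to 3. Their log2 fold changes, between -0.25 and 0.14, were therefore mostly of the other sign than that of the brightest probe (0.14), and none passed the test. Of the 12 members with several probes, 10 had probes of both signs, and of all 65 probes 0 were called and 44 had a log2 fold change above 0. Among the 47 probes above background in both samples of all 6 arrays, 44 were above 0 on CPF Cy3 replicate 3 and 42 were below 0 on CPF Cy3 replicate 1.

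Attachment genes encode the proteins of dense bodies, M-lines and the basement membrane that hold the filaments in place. Of 8 members 0 passed the test and 6 had a log2 fold change above 0, with a median of 0.12. Their median was 0.02, 0.18 and 0.47 on CPF Cy5 replicate 3 and CPF Cy3 replicates 2 and 3, and 0.20, 0.10 and -0.12 on CPF Cy5 replicates 1 and 2 and CPF Cy3 replicate 1. In this group the scan days overlapped, and CPF Cy3 replicate 1 was the only array with a median below 0.

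The highest value in the group was that of deb-1, which encodes vinculin of the dense body. Its log2 ratio was 0.27, 0.63 and 0.71 on CPF Cy5 replicate 3 and CPF Cy3 replicates 2 and 3, and 0.26, 0.16 and -0.32 on CPF Cy5 replicates 1 and 2 and CPF Cy3 replicate 1. It was above 0 on 5 of 6 arrays, with a log2 fold change of 0.29 ± 0.14 (limma, adjusted p = 0.553). Without CPF Cy3 replicate 1 the log2 fold change was 0.45 ± 0.08 and passed (adjusted p = 0.0367), and deb-1 and myo-3 were the only members to do so in that fit, in which 0.578% of all genes were called higher. It was 0.19 ± 0.14 without CPF Cy3 replicate 3 and 0.14 ± 0.15 as the mean over its 5 probes, and neither passed (adjusted p = 0.732 and 0.846). The lowest value was that of alpha-actinin (atn-1), which crosslinks actin at the dense body, with log2 ratios of -0.57, 0.75 and 0.58 on the arrays of scan day 2 and of 0.03, -0.15 and -1.01 on those of scan day 1, and a log2 fold change of -0.06 ± 0.22 (adjusted p = 0.967). The probe read for the ALP-Enigma gene alp-1 was highest on CPF Cy5 replicates 1 (0.63) and 2 (0.59). It lay between -0.16 and 0.12 on the remaining arrays, and on CPF Cy3 replicate 2 it was not above background in CPF. The other probe of alp-1 differed, with 0.12, 0.13 and -1.54 on CPF Cy5 replicates 1 to 3. Its log2 fold change was -0.30, against 0.21 for the probe read. Perlecan of the basement membrane (unc-52), beta integrin (pat-3), kindlin (unc-112) and PINCH (unc-97) had log2 fold changes between 0.05 and 0.15. The immunoglobulin-domain gene dim-1 was at -1.29 on CPF Cy3 replicate 2 and at 0.89 on CPF Cy5 replicate 2, and its log2 fold change was -0.02 ± 0.24.

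Excitation is represented by 2 members, and 0 of them passed the test. The ryanodine receptor unc-68, which releases calcium from the sarcoplasmic reticulum, had log2 ratios of 0.31, 0.31 and 0.81 on CPF Cy5 replicate 3 and CPF Cy3 replicates 2 and 3, and of 0.01, -0.10 and -0.23 on CPF Cy5 replicates 1 and 2 and CPF Cy3 replicate 1. All 3 values of scan day 2 were above all 3 of scan day 1, and the log2 fold change was 0.18 ± 0.13 (limma, adjusted p = 0.74). The L-type calcium channel gene egl-19 had log2 ratios of -0.43, 0.06 and 0.60 on scan day 2 and of -0.13, -0.13 and -0.28 on scan day 1, and a log2 fold change of -0.05 ± 0.12 (adjusted p = 0.942).

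**Figure D4:**
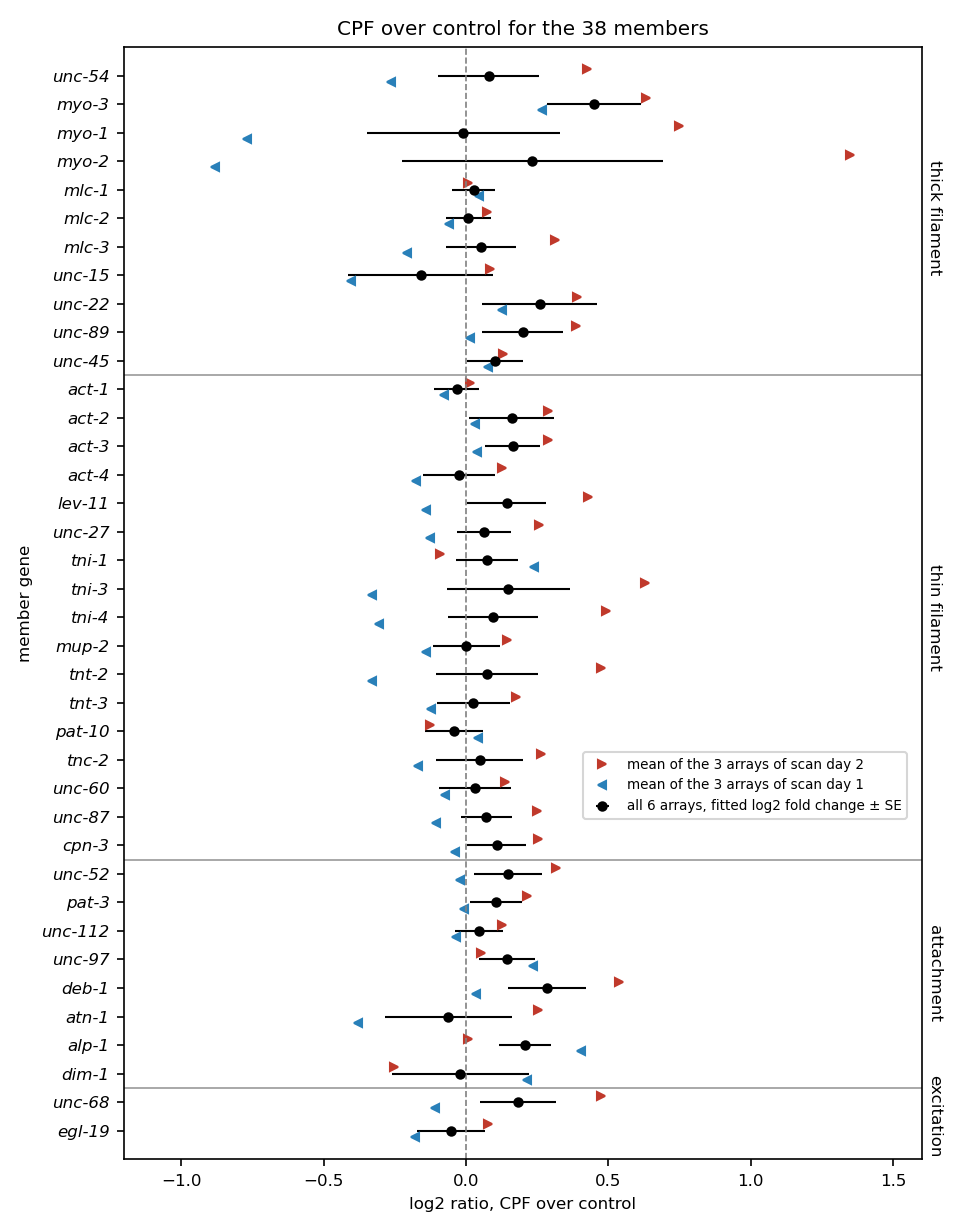
Log2 fold change of CPF over control with its standard error from the fit over all 6 arrays (black), and the mean log2 ratio of the 3 arrays of scan day 2 (red, pointing right) and of the 3 arrays of scan day 1 (blue, pointing left), for each member by role. The mean of scan day 2 lies right of that of scan day 1 for most members, most widely for myo-2 (1.35 against -0.88) and myo-1 (0.75 against -0.77), while the black points lie between -0.16 and 0.45.

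The difference of CPF over control between the scan days was tested in a fit with a term for scan day and for the dye. It passed for 0 of 38 members and for 0 of 18865 genes (0%) after adjustment. An unadjusted p below 0.05 was found for 9 of 38 members, against 8.53% of all genes. Among those above background it was found for 8 of 33 members, against 14.7% of genes. In 33 members the fitted difference between day 2 and day 1 was above 0, with a median of 0.33, against -0.004 over all genes. It was widest for myo-2 (2.20 ± 0.58, limma, adjusted p = 0.568), followed by myo-1 (1.55 ± 0.48, adjusted p = 0.568). Values above 0 on every array of day 2 and below 0 on every array of day 1 were seen in 7 of 38 members (unc-54, myo-1, myo-2, mlc-3, unc-27, tni-4 and tnt-2), and in 6 of the 33 members above background, which leave out myo-1, against 3.49% of the genes above background. The opposite order was seen in 0 members. Without CPF Cy3 replicate 1 the median was 0.07. As the fit holds a dye term, it then compared the days only between CPF Cy5 replicate 3 and CPF Cy5 replicates 1 and 2. Without CPF Cy5 replicate 3 the median was 0.62, and the days were then compared only between CPF Cy3 replicates 2 and 3 and CPF Cy3 replicate 1.

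Taken within each day, myo-2 passed the test in opposite directions. Such a fit rests on 3 arrays with 1 residual degree of freedom, and 1 of the dye orientations is a single array (CPF Cy5 replicate 3 on scan day 2, CPF Cy3 replicate 1 on scan day 1), which is assumed to vary like the others. The standard errors therefore come from the other 2 arrays and from the spread pooled over all probes, and do not hold the difference between the orientations. Within scan day 2 myo-2 was higher in CPF treated worms, with a log2 fold change of 1.10 ± 0.19 (limma, adjusted p = 0.0256), and it was the only member called, against 0.737% of all genes. For myo-1 the log2 fold change there was 0.66 and did not pass (adjusted p = 0.519). Within scan day 1 myo-2 was lower (-1.10 ± 0.12, adjusted p = 0.0173), as was myo-1 (-0.89 ± 0.16, adjusted p = 0.0427), and these were the only 2 of 38 members called, against 4.56% of all genes. The median log2 fold change over the members was 0.22 within scan day 2 and -0.10 within scan day 1. With scan day as a block over all arrays it was 0.04, and 0 members were called. The scan days also hold different numbers of arrays of each dye orientation.

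A bias of a dye for a probe would also give opposite signs on the 2 dye orientations. The dye effect of the fit passed the test for 0 of 38 members and for 8 genes (0.0424%), and its median over the members was -0.04. Without CPF Cy3 replicate 1 the median was -0.17, and 12 members had an unadjusted p below 0.05, against 16.1% of all genes, with 0 members and 90 genes passing. Within the arrays with CPF in Cy3 the members ranged widest, and 23 of 38 were below 0 on replicate 1 and above 0 on replicates 2 and 3, as were 22 of the 33 members above background and 21.5% of all genes above background. Among the 22 were the myosin heavy chains unc-54, myo-3 and myo-2, the troponin I genes unc-27, tni-3 and tni-4, and paramyosin. Vinculin, alpha-actinin, integrin and both excitation genes were among them as well. The 23 also hold myo-1, whose ratio on CPF Cy3 replicate 2 gives no direction, as neither sample was above background there.

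Members listed for the pharynx were set beside all other members. Most of the others were listed as general and only some for the body wall, so body wall muscle was not set apart. The 4 pharyngeal members (myo-1, myo-2, tni-4 and tnc-2) had median log2 ratios of 0.30, 0.94 and 0.83 on CPF Cy5 replicate 3 and CPF Cy3 replicates 2 and 3, and of -0.60, -0.22 and -0.63 on CPF Cy5 replicates 1 and 2 and CPF Cy3 replicate 1. The 34 other members had medians of 0.09, 0.28 and 0.45 on the arrays of scan day 2 and of 0.004, 0.02 and -0.28 on those of scan day 1. The residual standard deviation had a median of 0.81 over the pharyngeal and of 0.35 over the other members, and the median log2 fold change was 0.07 in both groups. On CPF Cy3 replicate 2 the log2 intensity of tni-4 was 12.48 in the CPF sample, above its range on the other arrays (10.83 to 11.87), and 11.38 in the control sample, within its range there (10.86 to 11.66). For tnc-2 it was 11.77 in the CPF sample (10.66 to 11.64 on the other arrays) and 10.99 in the control sample (10.63 to 11.87). On that array the control intensity was thus below its other values for myo-2 and the CPF intensity above them for tni-4 and tnc-2. Neither sample was above background for myo-1. The median log2 deviation of the 4, myo-1 included, from the mean intensity of the same dye was 0.47 in the CPF and -0.76 in the control sample. That of the genes above background was 0.44 and 0.48. Aquantile gives every array the same distribution of mean brightness, and these genes had to be above background on this array too, where the fewest probes were. Their deviation cannot be told apart from that choice. Relative to them the 4 pharyngeal members were at 0.02 and -1.23, which shares this limit.

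Lists of other genes moved with the muscle genes on some arrays. A list of 16 germline genes had medians of -0.17, 0.26 and 0.45 on CPF Cy5 replicate 3 and CPF Cy3 replicates 2 and 3, and of -0.57, -0.26 and -0.63 on CPF Cy5 replicates 1 and 2 and CPF Cy3 replicate 1. The germline list was thus lowest on CPF Cy3 replicate 1 and highest on CPF Cy3 replicate 3, as were the members. The 6 yolk protein genes (medians from -4.06 to -0.74) and 15 major sperm protein genes (from -3.04 to -0.60) were below 0 in the median on all 6 arrays, and least so on CPF Cy3 replicates 2 and 3. By contrast 12 neuronal genes were at -0.19 and -0.17 on CPF Cy3 replicates 2 and 3 and between 0.005 and 0.30 on the other arrays, and 78 ribosomal protein genes lay between -0.15 and 0.16. Medians of 138 cuticle collagens lay between -0.25 and 0.003 and those of 7 intestinal genes between -0.40 and 0.04. Yolk proteins are made by worms that reach adulthood and major sperm proteins from the late larval germline on, and the part of worm stage, germline and scan day in the ratios of the muscle genes was not tested.

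**Figure D5:**
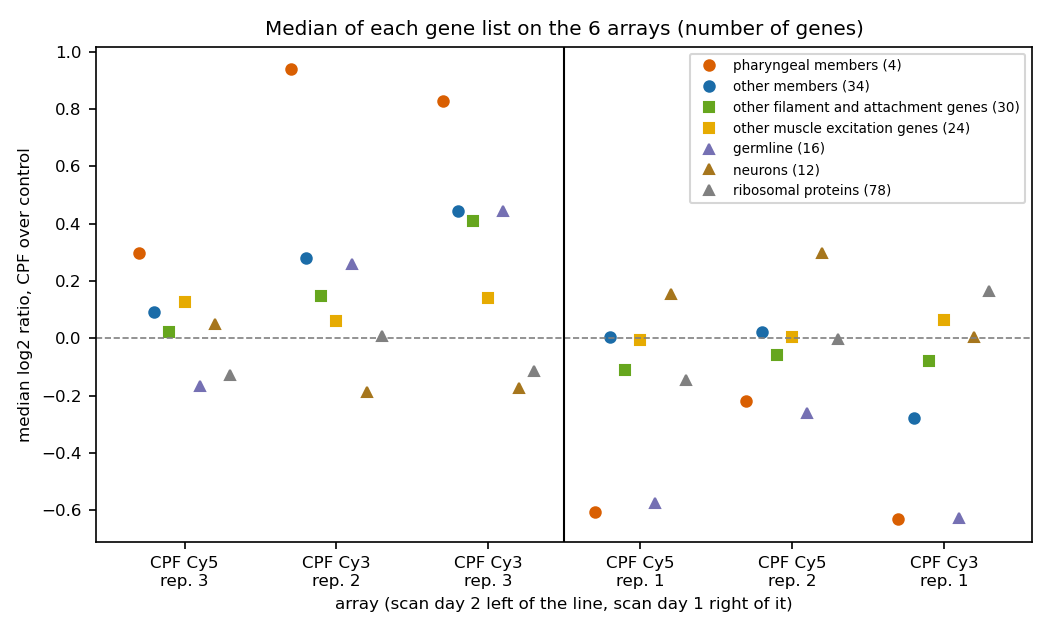
Median log2 ratio of CPF over control on each array (horizontal axis, scan day 2 left of the line) for the pharyngeal and the other members, for other muscle genes, and for lists of germline, neuronal and ribosomal protein genes, with the number of genes in brackets. The pharyngeal members span -0.63 to 0.94 and the germline genes -0.63 to 0.45, while the other excitation genes of muscle stay between -0.005 and 0.14.

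Further genes of muscle, 65 that are not members, were counted in the same way, and 0 of them passed the test, against 1.19% of all genes. An unadjusted p below 0.05 was found for 4 of the 65, against 10.3% of all genes, and 47 had a log2 fold change above 0, against 51.8% of all genes, with a median of 0.02. The 30 other filament and attachment genes had medians of 0.02, 0.15 and 0.41 on CPF Cy5 replicate 3 and CPF Cy3 replicates 2 and 3, and of -0.11, -0.06 and -0.08 on CPF Cy5 replicates 1 and 2 and CPF Cy3 replicate 1. The 24 other excitation genes, mostly channels and receptors, lay between -0.005 and 0.14. The 8 genes of the dystrophin complex were lowest on CPF Cy3 replicate 2 (-0.04) and highest on CPF Cy3 replicate 1 (0.26). The 3 genes of muscle transcription factors (hlh-1, unc-120 and hnd-1) had medians of 0.22, 0.11 and -0.09 on the arrays of scan day 2 and of -0.01, 0.02 and 0.41 on those of scan day 1, so that on CPF Cy3 replicates 3 and 1 they had the other sign than the members. Of the 3, hnd-1 was above background on no array. The highest fold changes were those of the potassium channel subunit genes sup-10 (0.34 ± 0.10, limma, adjusted p = 0.241) and sup-9 (0.28 ± 0.07, adjusted p = 0.135), both above 0 on all 6 arrays, and of the dystrobrevin gene dyb-1 (0.27 ± 0.12, adjusted p = 0.489). Of these, sup-9 was above background on 4 CPF and 2 control samples and sup-10 on 3 and 1, and their values moved with the background correction, to 0.14 for sup-10 and 0.16 for sup-9 without it and to 0.92 and 0.56 with plain subtraction. The lowest were those of nid-1 (nidogen), lim-8 and lev-8, with log2 fold changes between -0.19 and -0.14.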

How the data were processed

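Labelled cDNA of CPF and control worms was hybridized to oligonucleotide arrays purchased from Washington University. The deposited intensity values, from a ScanArray Express scanner per the file headers, gave spot and local background brightness for the Cy5 and Cy3 channels on a linear scale without normalization. Pixel saturation was deposited as a percent of each spot. The authors also deposited a table of log2 ratios, made with loess within and Aquantile between arrays in limma, which equalled CPF over control from a loess fit without background correction to within 0.0148. It was used as an alternative.

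Of 23232 spots, 742 were control or empty. Background was corrected with normexp (offset 50) on mean foreground and median local background, ratios were normalized with global loess (control spots at weight 0) and Aquantile, and a model with treatment and dye terms was fitted to all probes with limma 3.58.1 in R 4.3.3. The tests were two-sided, with Benjamini-Hochberg adjustment over all genes, and the brightest probe represented a gene. Loess assumes that most genes of a given brightness do not change, and the muscle genes are bright. A spot was above background where its foreground exceeded the background by more than 2 SD. The rank product used 100 permutations. Scripts were tested on simulated data. Per sample 34.98% to 61.6% of probes were above background, with the lowest shares on CPF Cy3 replicate 2 (34.98% in CPF and 41.5% in control). At most 144 probes were saturated, and the number of arrays limits the precision. The ratios of CPF Cy3 replicates 2 and 3 correlated with each other with r of 0.41 over 7072 genes. With the other arrays their r lay between -0.17 and 0.20, and the other arrays correlated among themselves with r between 0.43 and 0.72. CPF Cy5 replicate 3, of scan day 2, correlated with the arrays of scan day 1 with r between 0.43 and 0.56. With the other arrays of its own day r was 0.004 and 0.20. Symbols came from a gene table of assembly WBcel235, used for names only. Tables and figures were made with pandas 2.3.3 and matplotlib 3.10.9.

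The members and all gene lists were chosen with earlier results of these data known, so no test was made over a list. Full statistics are given for the myosin heavy chains, for the highest and lowest member of each role and for members past the threshold. Other muscle genes are named as the 3 highest and 3 lowest, and where they were called within a scan day. Of the other lists unc-96, lev-10 and opt-2 were not matched. Alternatives were no, plain or offset-free background correction, median centring, print-tip loess, the authors' table, scaling between arrays, filters on dim, saturated or otherwise coded spots, the mean over probes, scan day, replicate number and leaving out each array.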

Additional observations from a re-analysis of the deposited data

Results flagged for a closer look

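In 3 of the 38 members, 1 array stood apart from the other 5 by more than Dixon's limit for 6 values, which chance gives in about 1 of 20 groups. They were unc-89 on CPF Cy3 replicate 3 (log2 ratio 1.08, with the gap to the next array taking 0.894 of the range), act-1 on CPF Cy3 replicate 2 (0.29, gap 0.719) and pat-3 on CPF Cy3 replicate 3 (0.48, gap 0.647). The probe of unc-89 was above background in 4 CPF and 5 control samples.

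In 7 members every array of scan day 2 was above 0 and every array of scan day 1 below 0, although myo-1 was not above background on CPF Cy3 replicate 2. The fitted difference of the log2 ratio of CPF over control between day 2 and day 1 was 2.20 for myo-2, 1.55 for myo-1, 0.88 for tnt-2, 0.77 for unc-54, 0.64 for tni-4, 0.50 for mlc-3 and 0.36 for unc-27. The limma test of this difference over all genes gave adjusted p between 0.568 and 0.603 for these 7 members, none of which passed. In all 0 genes passed, with an unadjusted p below 0.05 in 8.53% of genes and in 14.7% of genes above background.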

How the results depend on the processing

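With 0 members called under each of the changes of background correction, normalization, filter and probe choice, with scan day as a block and under the rank product, calls appeared only when arrays were left out. Within scan day 2 myo-2 was called, and within scan day 1 myo-1 and myo-2, with the other muscle genes tnt-4 and cpn-4. On CPF Cy5 replicate 3 and CPF Cy3 replicates 2 and 3 the log2 ratios of tnt-4 were -0.35, 1.48 and 1.17, and those of cpn-4 0.02, 1.01 and 1.06. On CPF Cy5 replicates 1 and 2 and CPF Cy3 replicate 1 they were -0.86, -0.34 and -0.96 for tnt-4 and -0.69, -0.60 and -0.68 for cpn-4. Leaving out each array gave 0 to 2 member calls, the 2 without CPF Cy3 replicate 1 (myo-3 and deb-1). The dye effect passed for 3 of 38 members and 9.81% of all genes with median centring, which leaves dye differences that vary with brightness. Median centring moved the member median to 0.30 and 0.79 on CPF Cy5 replicates 2 and 3 and to -0.68 and -0.11 on CPF Cy3 replicates 1 and 2. The median log2 fold change over the members was 0.06 to 0.11 under the other processing alternatives, 0.02 to 0.18 when an array was left out, and -0.10 within scan day 1.

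Directions of several named genes turned, deb-1 and myo-2 among them, and the cause was not tested. Within scan day 1 the log2 fold change was -0.38 for unc-54, -1.10 for myo-2, -0.030 for act-3, 0.10 for pat-10, -0.054 for deb-1, -0.14 for unc-68, 0.0011 for lev-8 and -0.018 for dyb-1. Within scan day 2 it was 0.66 for myo-1 and 0.049 for atn-1, and with scan day as a block -0.00063 for myo-2 and 0.020 for pat-10. The value of myo-1 was 0.12 with plain subtraction, 0.076 with offset 0, 0.13 with median centring, 0.025 with print-tip loess and 0.0037 with spots of scanner code 3 alone, and that of egl-19 was 0.16 with the last and 0.044 as the mean over its probes. With each array left out, the ranges were 0.27 to 0.63 for myo-3, 0.19 to 0.45 for deb-1, -0.094 to 0.29 for unc-54, -0.38 to 0.35 for myo-1, -0.17 to 0.83 for myo-2, -0.34 to 0.12 for unc-15, -0.13 to 0.036 for pat-10, -0.22 to 0.22 for atn-1 and -0.17 to 0.050 for egl-19. With the replicate number as a replicate block 0 members were called and the median was 0.07, and 71 genes were called higher and 224 lower, in place of 61 and 164. Same-numbered samples of opposite dye correlated with r of 0.16, 0.07 and 0.02 in their deviations over all genes. Over genes above background r was 0.22, 0.12 and 0.08. The highest r with another number was -0.09, 0.004 and 0.10 there, above that of the own number for replicate 3 alone. The main fit did not pair samples by number. Few arrays, dim spots of mlc-1 and saturated actin spots limit the precision.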
